A study of Caenorhabditis elegans with 2 samples.

Results

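The chaperone genes of C. elegans were examined for binding by the transcription factor AHA-1. All protein-coding genes of the Ensembl WBcel235 annotation with the symbol hsp-, cct-, dnj- or pfd- plus a number were taken, which gave 65 genes of 19973. They comprised 22 heat shock protein genes (hsp-), 8 genes for subunits of the cytosolic chaperonin (cct-), 29 J-domain protein genes (dnj-) and 6 prefoldin subunit genes (pfd-), spread over all 6 chromosomes. The data were peak lists from ChIP-seq (sequencing of immunoprecipitated chromatin) against an eGFP-AHA-1 fusion in strain OP124, which carries the unc-119(ed3) III allele and the integrated array wgIs124. Whole L1 larvae, the first larval stage, were used as pools of males and females whose age is labelled unknown. There were 2 biological replicates of this 1 group. A strain without the fusion, another stage and a heat-shocked sample were not analysed here, so no difference between conditions was measured. Both replicates carry the array, the sources used here do not give the promoter that drives the fusion, and whole larvae hold all tissues at once, so the cells in which a region was bound cannot be told apart.

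Chaperones keep proteins folded. HSP70 proteins bind and release unfolded stretches in a cycle that J-domain proteins start and nucleotide exchange factors such as HSP110 complete, HSP90 matures signalling proteins, and prefoldin hands nascent actin and tubulin to the chaperonin CCT. Small heat shock proteins hold unfolded proteins without using ATP, and their genes, with those of several larger chaperones, are induced by HSF-1, which binds heat shock elements made of inverted GAA units. AHA-1 is the worm counterpart of the mammalian ARNT, the shared partner of bHLH-PAS factors such as HIF-1 and AHR-1, whose dimers are known for binding short core words that end in CGTG.

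Each gene was given a score, the highest signal value among the pooled regions whose summit, the position of strongest signal, lay 1000 bp upstream to 200 bp downstream of one of its transcript starts. The signal value is the authors' own measure of enrichment per region, and no source used here states its scale. The pooled list held 30000 regions with signals of 2.88 to 254 and a median of 4.27. A shorter list of 530 regions, kept by the authors for their reproducibility, is called thresholded peaks here. It held signals of 18.4 and above, and the strongest region left out had 18.3, so it equals the strongest 530 pooled regions. A thresholded peak need not be strong in each replicate. Of the 546 protein-coding genes with one, 269 (49.3%) had that peak among the strongest 530 regions of both replicates. Among the chaperone genes these were 9 of 16 (56.2%). Replicate 1 had 24611 regions with a highest signal of 167 and a median of 3.16. Replicate 2 had 18195 regions with a highest signal of 94.9 and a median of 2.88. Signals of different lists may therefore be on different scales. Sequencing depth is not given, so no counting error can be attached to a signal, and the peaks of the main chaperone genes are given below for the pooled list and for both replicates.

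Of the 65 chaperone genes, 16 (24.6%) had a thresholded peak, against 546 of all 19973 protein-coding genes (2.73%). A pooled region of any strength lay in the window of 43 chaperone genes (66.2%), against 43.3% of all protein-coding genes. Among genes with a pooled region, the median score was 9.3 in chaperone genes and 4.92 in all genes. Over all 65 chaperone genes the median score was 5.06, whereas the median protein-coding gene had no region. Among the strongest 530 regions of replicate 1, 13 chaperone genes (20%) had a region in their window, against 2.63% of all genes. In replicate 2 the same count gave 11 chaperone genes (16.9%), against 2.31% of all genes. In both replicates at once, 9 chaperone genes (13.8%) passed, against 1.36% of all genes. The higher share in chaperone genes was thus present in each replicate taken alone. Members with peaks were found in each of the 4 families, with 7 of 22 hsp- genes, 2 of 8 cct- genes, 5 of 29 dnj- genes and 2 of 6 pfd- genes. Ribosomal protein genes had thresholded peaks in 33 of 78 cases (42.3%), and proteasome subunit genes in 2 of 33 (6.06%), so the chaperone share lay between those of these sets. The proteasome genes with a peak include rpn-3, whose peak is the same region as that of hsp-110.

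**Figure D1:**
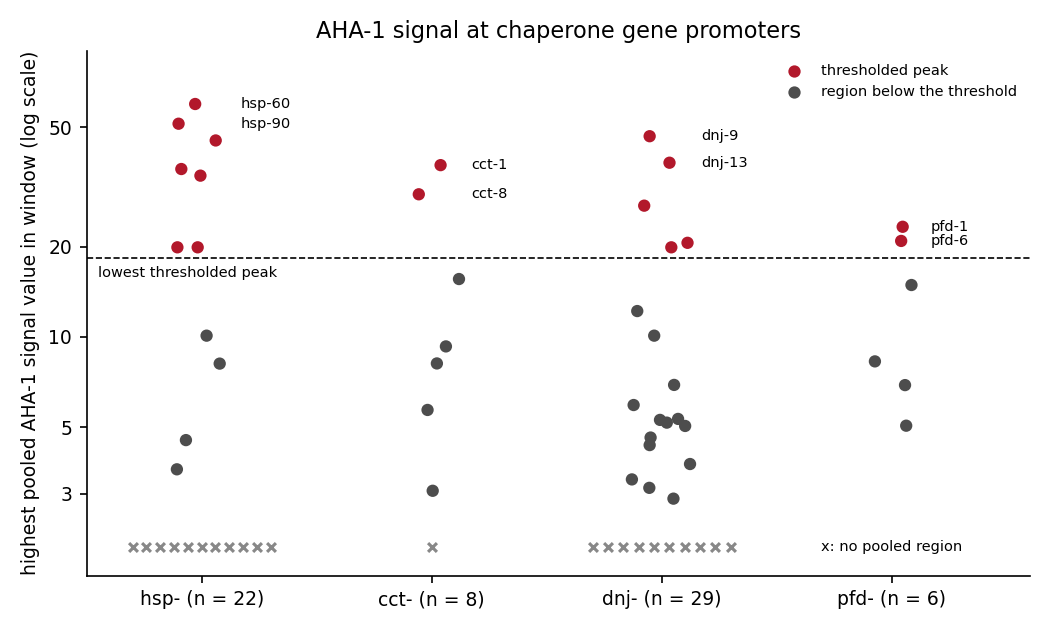
Highest pooled AHA-1 signal value in the promoter window of each chaperone gene (vertical log axis), by family, with each point 1 gene and the 2 highest genes of each family named. The 16 genes above the dashed line, the lowest thresholded signal of 18.4, come from all 4 families, and 22 genes had no pooled region (crosses, placed at an arbitrary height).

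Strong peaks lay at the HSP70 and HSP110 genes hsp-1 and hsp-110, the HSP90 gene hsp-90 and the J-domain genes dnj-13 and dnj-9. The 101 bp around these summits are shown because 4 of these 5 hold a heat shock element word close to the strongest AHA-1 signal. These 5 peaks were picked for display, and over all 15 distinct chaperone peaks 5 hold the word in that window. Each sequence is from the RefSeq genome sequence of WBcel235 (ce11), 5′ to 3′ on the strand of the chaperone gene, with the words GAANNTTC, GCGTG and ACGTG in capitals wherever they lie on either strand. The intervals are chrIV:17278527-17278627 (plus strand) for hsp-1, chrII:11545465-11545565 (plus) for dnj-13, chrIII:8447105-8447205 (minus) for hsp-110, chrV:14685720-14685820 (plus) for hsp-90 and chrII:4851760-4851860 (plus) for dnj-9.
hsp-1: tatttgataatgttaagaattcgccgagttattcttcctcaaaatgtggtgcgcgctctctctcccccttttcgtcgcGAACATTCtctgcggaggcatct
dnj-13: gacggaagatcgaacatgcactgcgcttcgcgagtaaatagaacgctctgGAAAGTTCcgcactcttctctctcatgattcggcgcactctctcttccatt
hsp-110: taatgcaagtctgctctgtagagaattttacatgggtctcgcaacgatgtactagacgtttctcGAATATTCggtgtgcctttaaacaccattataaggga
hsp-90: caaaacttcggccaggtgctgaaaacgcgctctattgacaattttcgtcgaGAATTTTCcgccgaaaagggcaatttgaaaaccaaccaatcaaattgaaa
dnj-9: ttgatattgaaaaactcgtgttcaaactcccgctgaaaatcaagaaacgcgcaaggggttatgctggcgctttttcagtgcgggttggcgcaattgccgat

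hsp-1 encodes the constitutive cytosolic HSP70. Its peak (chrIV:17278419-17278734) had a signal of 45.2 in the pooled list, 26.7 in replicate 1 and 15.8 in replicate 2, and ranked 58th in the pooled list. The summit lay 382 bp upstream of the hsp-1 start in intergenic sequence, and no other gene's start was nearer. dnj-13, which encodes a J-domain protein of the DNAJB1 type that acts with HSP-1, had a signal of 38.1 in the pooled list, 21.1 in replicate 1 and 16.2 in replicate 2. Its summit lay 186 bp upstream of the start, in an intron of the overlapping gene dhgd-1. hsp-110 encodes the nucleotide exchange factor that completes the HSP-1 cycle, and its peak had a signal of 34.5 in the pooled list, 22.2 in replicate 1 and 11.4 in replicate 2. That summit lay 246 bp upstream of hsp-110 but 198 bp from the start of rpn-3, a proteasome subunit gene. Each of these 3 peaks was among the strongest 530 regions of both replicates.

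hsp-90 encodes the cytosolic HSP90, and its peak (chrV:14685612-14685927) was the second strongest of the chaperone genes. Its signal was 51.4 in the pooled list, 36 in replicate 1 and 13.3 in replicate 2. The summit lay 390 bp upstream of a downstream hsp-90 start and 852 bp inside the gene as counted from the outermost start, within an intron, with the start of C47E8.4 nearer at 285 bp. A separate pooled region with a signal of 14.5, below the threshold, had its summit 15 bp downstream of the outermost hsp-90 start. The stronger of the 2 hsp-90 regions was therefore not the one at its outermost start. dnj-9, annotated only as a J-domain protein, had a signal of 46.7 in the pooled list, 30 in replicate 1 and 16.4 in replicate 2. Its summit lay 246 bp upstream of its start, and its printed window is the only one of the 5 without any of the words. The hsp-1 and dnj-9 peaks lay in no other gene's window, while those of dnj-13, hsp-110 and hsp-90 did.

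Chaperones of the mitochondria and of the endoplasmic reticulum were uneven within each organelle. The windows of hsp-60 (chrIII:1619076-1619176, plus strand) and hsp-3 (chrX:6092126-6092226, minus strand) are shown because, within 50 bp of the summit, these were the only 2 chaperone peaks that hold a GCGTG word, which in hsp-3 lies on the opposite strand and reads CACGC.
hsp-60: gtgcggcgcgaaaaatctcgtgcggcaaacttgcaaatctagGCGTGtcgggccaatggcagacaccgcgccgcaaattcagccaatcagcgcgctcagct
hsp-3: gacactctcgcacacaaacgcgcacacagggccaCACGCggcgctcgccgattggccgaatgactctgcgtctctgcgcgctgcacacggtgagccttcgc

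hsp-60, the mitochondrial chaperonin, had the strongest peak of all chaperone genes (chrIII:1618968-1619283). Its signal was 59.8 in the pooled list, 42.1 in replicate 1 and 17.5 in replicate 2, and it ranked 24th of the 530 thresholded peaks. The summit lay 616 bp upstream of hsp-60, the farthest of all chaperone peaks, and 197 bp from the start of Y22D7AL.10 on the opposite strand, annotated by RefSeq as the 10 kDa mitochondrial heat shock protein. The peak therefore lies between the genes of the mitochondrial chaperonin and its co-chaperonin. hsp-6, the mitochondrial HSP70, had a region below the threshold, with a signal of 10.1 in the pooled list, 4 in replicate 1 and 5.5 in replicate 2, and its summit was nearer to C37H5.5. hsp-75, a mitochondrial HSP90-like gene, had no pooled region.

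hsp-3 and hsp-4 encode the worm's paralogous BiP proteins, HSP70s of the endoplasmic reticulum. hsp-3 had a signal of 36.3 in the pooled list, 30.4 in replicate 1 and 5.35 in replicate 2. Its summit lay 52 bp upstream of the start, the closest of all chaperone peaks, in a window with a G+C content of 66.3%. Its rank differed strongly between replicates, at 58th in replicate 1 and 1380th in replicate 2. hsp-4 had no pooled region; its window, looked up after the values were seen, held a signal of 2.66 in replicate 1 and 2.56 in replicate 2. The J-domain genes of this organelle were below the threshold. dnj-29, a SEC63 counterpart, had a signal of 12.2 in the pooled list and 10.7 in replicate 1, with no region listed in replicate 2. dnj-27, the counterpart of mammalian ERdj5, had 5.93 in the pooled list, 2.33 in replicate 1 and 5.71 in replicate 2. dnj-7, the counterpart of mammalian P58IPK, had 5.33 in the pooled list and 3.02 in replicate 1, again with none in replicate 2.

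The chaperonin CCT is a ring of different subunits, each from its own gene, and the AHA-1 signal was not shared evenly among these genes. The windows of cct-1 (chrII:8185156-8185256, plus strand) and cct-8 (chrIV:1094322-1094422, minus strand) are shown as the only CCT peaks that passed, and neither holds a word within 50 bp of its summit.
cct-1: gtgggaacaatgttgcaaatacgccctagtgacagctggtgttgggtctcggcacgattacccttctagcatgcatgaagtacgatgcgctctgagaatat
cct-8: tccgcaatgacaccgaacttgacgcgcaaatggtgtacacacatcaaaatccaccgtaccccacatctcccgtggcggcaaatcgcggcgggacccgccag

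cct-1 had a signal of 37.4 in the pooled list, 23.2 in replicate 1 and 14.9 in replicate 2, with its summit 237 bp upstream and the start of mig-5 nearer at 183 bp. cct-8 had 29.9 in the pooled list, 20.4 in replicate 1 and 6.86 in replicate 2, with its summit 452 bp upstream and Y55F3AR.2 nearer at 169 bp. Both CCT peaks that passed thus lay closer to a neighbour's start. cct-7, at 15.6 in the pooled list, 13.5 in replicate 1 and 2.59 in replicate 2, was the chaperone gene just below the threshold. cct-6 followed with 9.3 in the pooled list, 8.9 in replicate 1 and 3.02 in replicate 2, and cct-4 with 8.16, 5.4 and 2.13 in the same lists. All 3 were weak in replicate 2, whose median signal was 2.88, and cct-7 and cct-4 lay below that median. cct-5 had 5.71 in the pooled list and 4.27 in replicate 1 only, cct-2 had 3.07 in the pooled list and 2.52 in replicate 2 only, and cct-3 had no pooled region. The subunit genes ran from no region to 37.4, without a common level.

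Prefoldin was the only family in which every gene had a pooled region of any strength, 6 of 6, against 43.3% of all protein-coding genes. pfd-1 had a signal of 23.3 in the pooled list, 13.6 in replicate 1 and 9.15 in replicate 2. Its summit lay 327 bp upstream, nearer to F01G4.6, a mitochondrial phosphate carrier gene, at 282 bp. pfd-6 had 20.9 in the pooled list, 6.56 in replicate 1 and 14 in replicate 2, and its summit lay 97 bp upstream with its own start nearest. In contrast to pfd-1, the pfd-6 signal was higher in replicate 2 than in replicate 1, although replicate 2 has the lower highest and median signals. pfd-3 had 14.9 in the pooled list, 10.6 in replicate 1 and 5.03 in replicate 2. pfd-5 had 6.91 in the pooled list, 3.73 in replicate 1 and 2.02 in replicate 2. pfd-4 at 8.29 and pfd-2 at 5.06 in the pooled list were listed in replicate 1, at 9.5 and 2.31, and not in replicate 2. The family median of 11.6 among genes with a region compared with 19.9 for hsp-, 9.3 for cct- and 5.33 for dnj- genes.

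**Figure D2:**
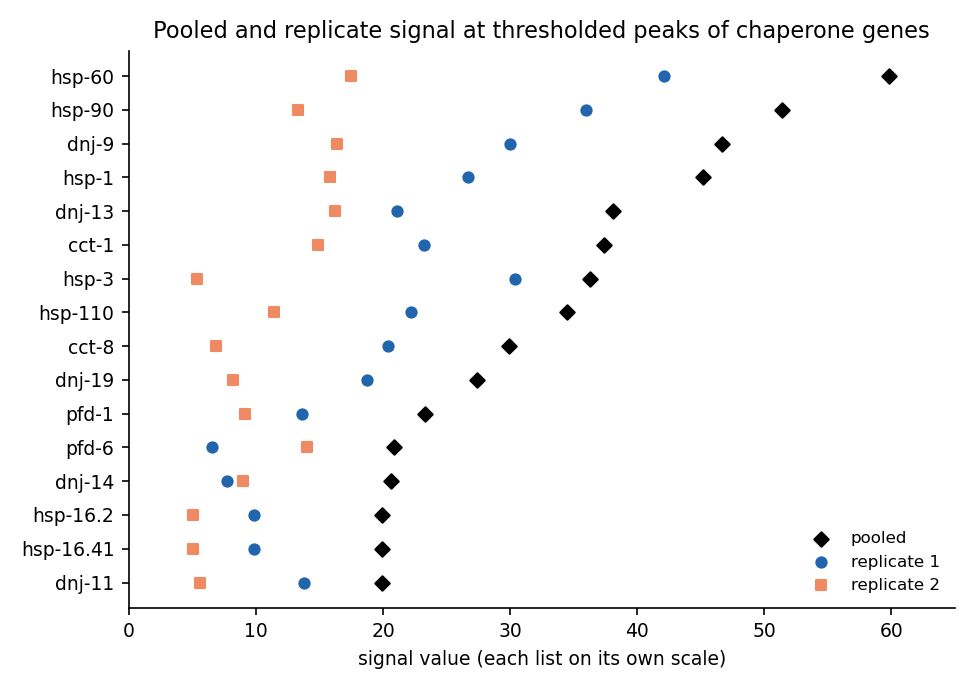
Signal value (horizontal axis, each list on its own scale) of the 16 chaperone genes with a thresholded peak, in the pooled list (diamonds), replicate 1 (circles) and replicate 2 (squares). Replicate 1 lies above replicate 2 in 14 of 16 genes, the exceptions being pfd-6 and dnj-14, and hsp-3 has the lowest replicate 2 value among the 10 strongest.

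The J-domain family was the largest, with 29 genes, and 5 of them (17.2%) had a peak: dnj-9, dnj-13 and 3 further genes. dnj-19, a DNAJA-type partner of HSP70, had a signal of 27.4 in the pooled list, 18.7 in replicate 1 and 8.17 in replicate 2. Its summit lay 377 bp upstream of dnj-19 but only 19 bp from the start of nhr-47, a nuclear hormone receptor gene. dnj-14, the cysteine string protein of synaptic vesicles, had 20.6 in the pooled list, 7.71 in replicate 1 and 8.98 in replicate 2, and lay nearer to glit-1. dnj-11, the counterpart of mammalian DNAJC2, had 19.9 in the pooled list, 13.8 in replicate 1 and 5.63 in replicate 2, and lay nearer to F38A5.2. In all 3 the start of another gene was the nearer one. Among the dnj- genes below the threshold, dnj-28 had 10.1 in the pooled list and 7.94 in replicate 1, and dnj-22 had 6.92 in the pooled list, 3.82 in replicate 1 and 3.96 in replicate 2. A further 9 dnj- genes had pooled signals of 2.89 to 5.29. The remaining 10, dnj-1, dnj-2, dnj-10, dnj-15, dnj-17, dnj-18, dnj-23, dnj-25, dnj-26 and dnj-30, had no pooled region.

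The small heat shock genes include the strongly heat-inducible hsp-16 genes, which lie as divergent pairs on chromosome V. The hsp-16.2/hsp-16.41 interval (chrV:1804947-1805188) and 1 of the other intervals, hsp-16.1/hsp-16.48 (chrV:9087807-9088106), are shown on the plus strand because only the hsp-16.2/hsp-16.41 interval had a pooled region although both carry heat shock element words, in capitals.
hsp-16.2/hsp-16.41: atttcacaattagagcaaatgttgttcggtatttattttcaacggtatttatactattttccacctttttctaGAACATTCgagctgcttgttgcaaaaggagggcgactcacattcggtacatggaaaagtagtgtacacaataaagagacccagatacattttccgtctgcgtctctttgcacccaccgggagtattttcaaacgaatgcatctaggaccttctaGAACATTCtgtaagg
hsp-16.1/hsp-16.48: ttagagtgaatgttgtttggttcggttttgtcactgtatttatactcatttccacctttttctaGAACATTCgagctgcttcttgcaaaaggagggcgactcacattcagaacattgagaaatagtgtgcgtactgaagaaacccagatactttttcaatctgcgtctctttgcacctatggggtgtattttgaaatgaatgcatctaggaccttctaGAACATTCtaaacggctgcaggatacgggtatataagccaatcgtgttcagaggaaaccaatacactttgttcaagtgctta

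hsp-16.2 and hsp-16.41 start 222 bp apart and share 1 peak (chrV:1804936-1805251). Its signal was 19.9 in the pooled list, 9.88 in replicate 1 and 5.02 in replicate 2, which placed it, with dnj-11, just above the threshold. Its rank of 850th in replicate 1 and 1706th in replicate 2 was outside the strongest 530 of either. The other pairs, hsp-16.1 with hsp-16.48 and their second copies, start 350 and 312 bp apart and had no pooled region, although the second copy of hsp-16.1 had a signal of 2.83 in replicate 2. Every 36-base stretch between their starts occurs more than once in the genome (100%), against 0% between hsp-16.2 and hsp-16.41. How reads that map to several places were treated is not given in the sources used here, and its part in the missing regions was not tested. Of the other small heat shock genes, hsp-12.2 had 8.15 in the pooled list, 4.88 in replicate 1 and 2.59 in replicate 2. hsp-43 had 4.53 in the pooled list and 4.54 in replicate 1, and hsp-12.6 had 3.62 in the pooled list and no region in either replicate. hsp-12.1, hsp-12.3, hsp-17 and hsp-25 had no pooled region, nor had hsp-70, a heat-inducible cytosolic HSP70 gene. The labels name no heat treatment of these larvae, and 2 of 13 small heat shock genes and 3 of 6 HSP70 and HSP110 genes had a thresholded peak, against 2.73% of all protein-coding genes. The 2 small heat shock genes are hsp-16.2 and hsp-16.41 with their single shared peak, and a pooled region of any strength lay at 5 of the 13 (38.5%), against 43.3% of all protein-coding genes.

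In all, 22 chaperone genes had no pooled region, and 7 of these had a region in at least 1 replicate. Their nearest thresholded peak lay at a median distance of 97024 bp, and the closest was 907 bp from hsp-12.3. Repeated sequence touched more than the hsp-16 genes, since 36-base stretches found elsewhere in the genome made up over 10% of the window of 9 chaperone genes. Of these 9 genes, 8 had no pooled region, among them cct-3 with 18.6% and dnj-1 with 30.4%, and its part in their missing regions was not tested. The other 14 genes without a region had windows below that share.

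All 16 summits lay upstream of the chaperone gene's nearest start, at 52 to 616 bp with a median of 272 bp. In intergenic sequence lay 12 of them, in introns 2, and in a non-coding gene or pseudogene 2. Another gene's start was nearer to the summit for 10 of the 16 (62.5%), against 172 of the 546 genes with a thresholded peak (31.5%). The same peak also fell in another gene's window for 13 of the 16 chaperone genes (81.2%), against 59.7% of the 546. The 6 genes whose own start was nearest were hsp-1, hsp-3, hsp-16.41, dnj-9, dnj-13 and pfd-6. Counting a peak only for its nearest start therefore left 6 of 65 chaperone genes (9.23%), against 1.87% of all protein-coding genes. Which of the neighbours a peak acts on was not tested. The 15 distinct chaperone peaks had a median signal of 34.5, against 26.9 over all 530 thresholded peaks, and 10 of the 15 lay above that median.

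**Figure D3:**
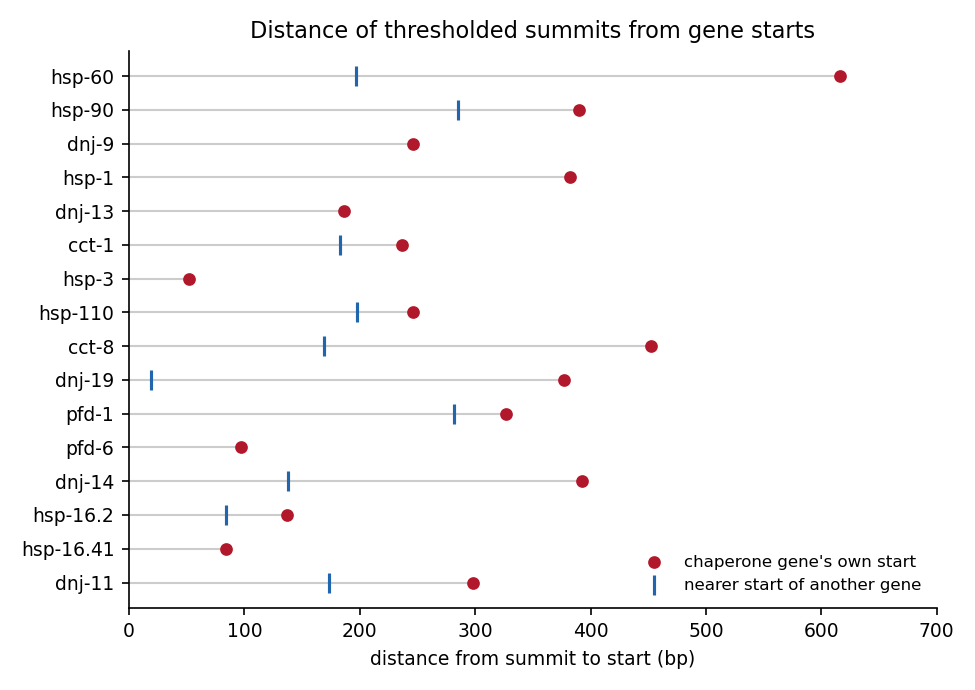
Distance in bp (horizontal axis) from the thresholded summit to the chaperone gene's own nearest start (circles) and, where there is one, to a nearer start of another gene (ticks), for the 16 genes. A tick stands left of the circle in 10 of 16 genes, and only hsp-60 lies beyond 500 bp.

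The words around the summits of chaperone peaks were counted on both strands, with CACGTG containing ACGTG and GAANNTTC being its own reverse complement. Within 50 bp of the summit, GAANNTTC was present in 5 of the 15 chaperone peaks (33.3%), against 29 of 530 thresholded peaks (5.47%) and 6.92% of 9528 pooled regions in promoter windows. The 5 were hsp-90, hsp-1, dnj-13, hsp-110 and dnj-19. None of the 27 chaperone regions below the threshold held the word in that window. Within 100 bp the share was 9 of 15 (60%) in chaperone peaks, against 18.5% in chaperone regions below the threshold, 10.6% in all thresholded peaks and 13.5% in all promoter regions. The additional peaks were those of hsp-60, cct-1, cct-8 and hsp-16.2 with hsp-16.41. Of the 10 matches within 100 bp, 8 lay on the side of the summit that faces the chaperone gene's start. The others also faced the start of a gene described here. The hsp-60 match lay toward Y22D7AL.10. The shared hsp-16.2/hsp-16.41 peak had a match on either side, toward either gene, so its count depends on the strand used.

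**Figure D4:**
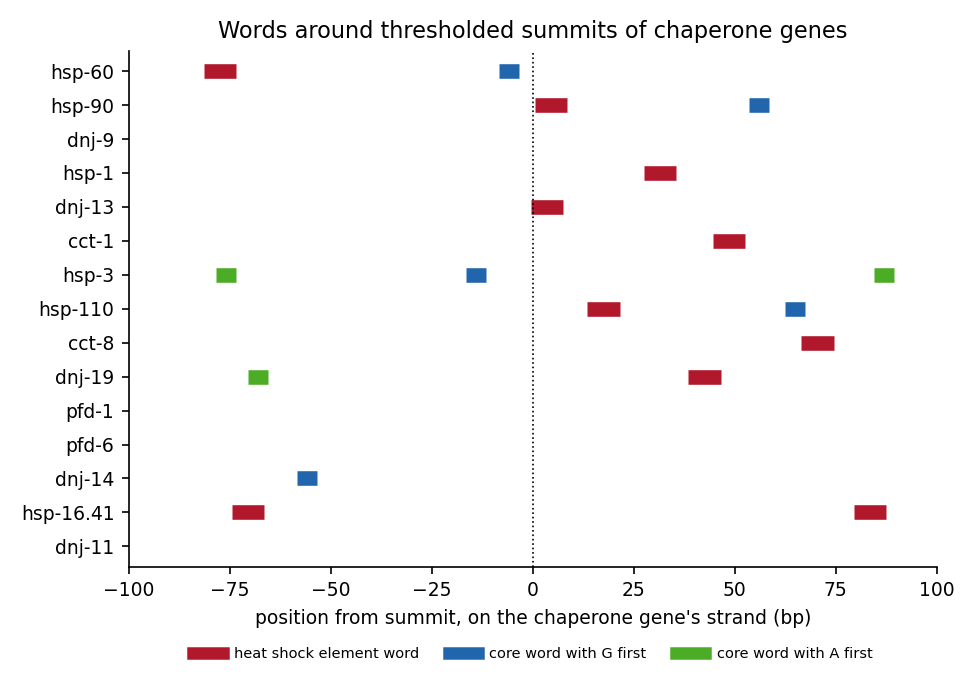
Position in bp of each word match within 100 bp of the summit (horizontal axis, 0 is the summit, positive toward the chaperone gene's start) at the 15 distinct chaperone peaks, from strongest at the top. Heat shock element words (GAANNTTC) appear at 9 peaks, most of them right of the summit, and the core words GCGTG and ACGTG at fewer. The peak shared by hsp-16.2 and hsp-16.41 is drawn on the strand of hsp-16.41.

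The core words of bHLH-PAS dimers were less frequent in chaperone peaks than in all thresholded peaks. GCGTG or ACGTG lay within 50 bp of the summit in 2 of the 15 chaperone peaks (13.3%), hsp-60 and hsp-3, against 10 of 27 chaperone regions below the threshold (37%), 224 of 530 thresholded peaks (42.3%) and 18% of all promoter regions. Within 100 bp the chaperone share was 40%, against 56.4% in all thresholded peaks and 30.3% in all promoter regions. CACGTG, the E-box, was in none of the 15 chaperone peaks within 50 bp, against 4.72% of the 530. The median G+C content of the 101 bp windows was 47.5% in chaperone peaks, 49.5% in all thresholded peaks and 35.6% in all promoter regions, so chaperone peaks were near the other peaks in composition. With 15 windows, each match moves a share by several percentage points, and a match describes letters only, with no factor shown to bind there.

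**Figure D5:**
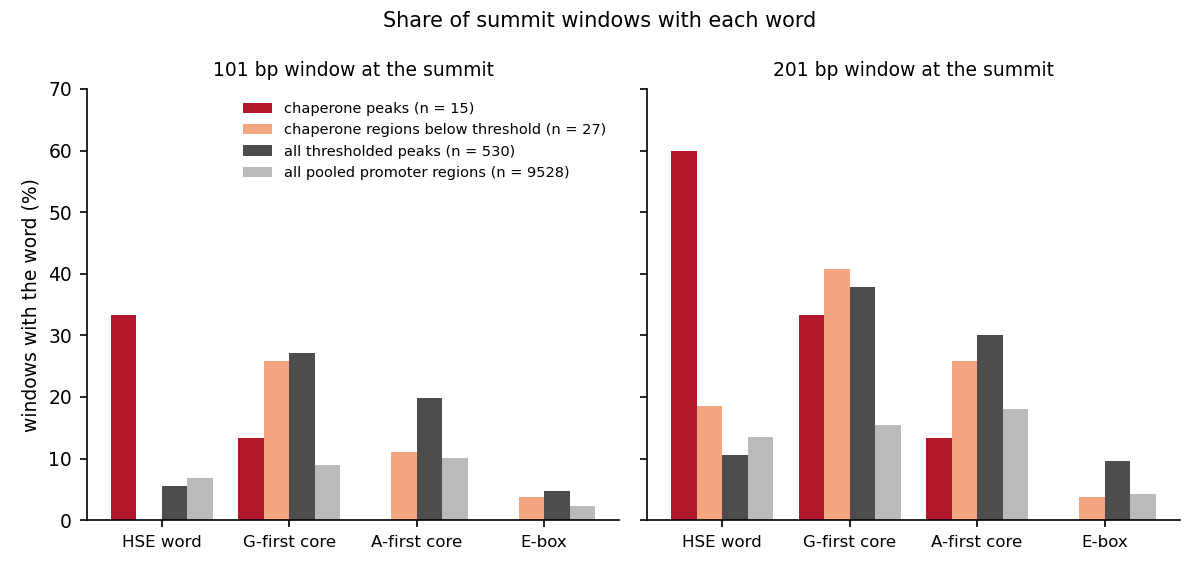
Percent of windows that hold each word (vertical axis from 0) within 50 bp (left) and within 100 bp (right) of the summit, in chaperone peaks (n = 15), chaperone regions below the threshold (n = 27), all thresholded peaks (n = 530) and all pooled promoter regions (n = 9528). The heat shock element word (HSE word, GAANNTTC) is the only word whose share is highest in chaperone peaks in both panels, at 33.3% and 60%.

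The heat shock element word was also counted in a fixed promoter of 250 bp before to 50 bp after each outermost start, without regard to any AHA-1 region. It was present in 9 of 16 chaperone genes with a thresholded peak (56.2%) and in 19 of 49 chaperone genes without one (38.8%). Here each gene was counted, not each distinct peak. The 9 therefore include both hsp-16.2 and hsp-16.41, which share 1 interval, and the 19 include both copies of hsp-16.1 and of hsp-16.48. Over all 65 chaperone genes the share was 43.1%, against 25.5% of the 546 genes with a thresholded peak and 18.5% of all protein-coding genes. The word was therefore frequent in chaperone promoters with and without an AHA-1 peak.

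Genes that act with these chaperones but have other symbols were scored in the same way. They were picked by symbol, with earlier results of these data known. Of 23 co-chaperones and other chaperones, 8 (34.8%) had a thresholded peak, against 2.73% of all protein-coding genes. None of 15 regulators of the heat shock and organelle stress responses had one, which is near the background share of all genes in a list of that size. The ER folding enzyme pdi-3 had a signal of 31.1 in the pooled list, 19.1 in replicate 1 and 11 in replicate 2, and pdi-2 had 30.1, 23.8 and 6.49 in the same lists. pdi-6 had 20.1 in the pooled list, 17.2 in replicate 1 and 3.61 in replicate 2. The calreticulin gene crt-1 had 25.1 in the pooled list and 16.2 in replicate 1, and was not listed in replicate 2. These ER genes were thus all stronger in replicate 1, the list with the higher highest and median signals. bag-1, which encodes a BAG-domain exchange factor of HSP70, had 25.9 in the pooled list, 14 in replicate 1 and 9.26 in replicate 2, and unc-23, which encodes another, had 19.3, 15.3 and 4.87. ahsa-1, the HSP90 activator, had 23.2 in the pooled list, 13.7 in replicate 1 and 9.15 in replicate 2. fkb-6, an FKBP-type co-chaperone of HSP90, had 23.2 in the pooled list, 10.1 in replicate 1 and 12.8 in replicate 2. The co-chaperone peaks therefore lay at partners of both HSP70 and HSP90, and pdi-3, ahsa-1 and fkb-6 had a nearer start of another gene. The highest scores without a thresholded peak were at aip-1, with 18.1 in the pooled list, 8.39 in replicate 1 and 7.6 in replicate 2, and at atf-6, with 14.6, 7.76 and 7.32. xbp-1 followed with 12.7 in the pooled list and 9.27 in replicate 1, with no region listed in replicate 2. hsf-1, the gene of the heat shock factor, had no pooled region.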

How the data were processed

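ChIP-seq of eGFP-AHA-1 was deposited as region lists for 2 replicates, both replicates pooled, and a thresholded subset. Per the labels, fragments measured 150 to 350 bp. The authors' signal value per region and −log10 q-value were read as deposited, and no result rests on the q-value. The labels name a possible control experiment, which was not analysed here. The aligner, peak caller, reproducibility threshold and depth are not given in the sources used here. Lists on ce11 were used, and those on ce10 were not used here. Gene starts came from Ensembl release 115 (WBcel235). Summits were assigned to starts within 1000 bp upstream and 200 bp downstream with Python 3.11.15, pandas 2.3.3 and numpy 2.4.6, by code tested on simulated data. Windows of 101 and 201 bp were searched for words.

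The members and lists were chosen with earlier results of these data known. Text names all members with a thresholded peak, all cct- and pfd- genes, every hsp- gene with a pooled region, the 5 highest other dnj- genes, genes beside the threshold, nearer neighbours, and related genes with a peak or among the 3 highest without. With 1 group no test was run. Alternatives changed the window, the start, the assignment, the list and the replicates. The labels call the replicates biological, without saying whether they came from separate cultures.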

Additional observations from a re-analysis of the deposited data

How the results depend on the processing

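Of 65 chaperone genes, 16 had a thresholded peak. The count was 15 or 16 with a window of 500 bp upstream and 100 bp downstream, one of 2000 and 500 bp, the outermost start or any overlap with the window, and hsp-60 was lost with the narrow window and hsp-90 with the outermost start. It was 6 where a peak counted only for its nearest start (9.23% of chaperone genes, against 1.87% of all genes), 10 in the stronger 50% of the list (15.4%, against 1.34%) and 9 where the peak was among the strongest 530 of both replicates (13.8%, against 1.35%). The related genes, 8 of 38, gave 5, 2 and 3 under these settings. With 1 replicate left out, the strongest 530 regions of the other were used. Without replicate 1 the counts were 11 chaperone genes (16.9%, against 2.31% of all genes) and 5 related genes (13.2%). Without replicate 2 they were 13 chaperone genes (20%, against 2.63%) and 7 related genes (18.4%). The 13 hold 12 of the 16 genes with a thresholded peak, and cct-7, which has none. Chaperone genes with a pooled region numbered 43 of 65 in the main setting, against 8655 of all 19973 genes (43.3%). Changes of window and assignment gave 30 to 51, for which no share over all genes is given here. A region of replicate 1 lay at 44 chaperone genes, against 7521 of all genes, and one of replicate 2 at 32, against 5781. The median score of chaperone genes with a region was 9.3 in the main setting, against 4.92 over all genes with a region. It was 8.15 with the wide window, 5.24 by nearest start and 8.29 by overlap. In single replicates, whose scales may differ, the median was 5.19 to 6.58. No median over all genes is given here for these settings. Whether the higher median of chaperone genes holds under them was not tested. No paired analysis was possible because there was 1 group. Depth is unknown, so a gene without a region cannot be called unbound.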

Other observations

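Genes whose symbols fall outside the rule, but whose RefSeq product names a chaperone or chaperone domain, were sought after the values were seen. The product name alone does not show that each is a chaperone. For example, meg-4 was taken as a J domain-containing protein. Of 13 such genes, 3 had a thresholded peak, against 2.73% of all protein-coding genes, but these rest on 2 peaks, of which 1 is the hsp-60 peak already described. A pooled region lay at 6 of the 13, near the 43.3% of all protein-coding genes. F44E5.4 and F44E5.5, annotated as heat shock protein 70 genes and transcribed away from each other, share a peak (chrII:11759298-11759613) with a signal of 36.6 in the pooled list, 17.9 in replicate 1 and 22.7 in replicate 2. The value was thus higher in replicate 2, as it was at pfd-6 and dnj-14. The summit lay 145 bp upstream of F44E5.4 and 206 bp upstream of F44E5.5. The 201 bp around it (chrII:11759356-11759556, minus strand, the strand of F44E5.4) are shown because they hold 5 GAANNTTC words, in capitals, and neither GCGTG nor ACGTG.
F44E5.4: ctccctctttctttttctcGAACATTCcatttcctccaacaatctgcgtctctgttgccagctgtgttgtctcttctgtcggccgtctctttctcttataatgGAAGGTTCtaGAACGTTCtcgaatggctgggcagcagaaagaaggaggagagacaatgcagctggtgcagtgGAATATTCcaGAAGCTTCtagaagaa

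Y22D7AL.10, the third of these genes, shares the hsp-60 peak. F48E8.8, annotated as an Hsp20/alpha crystallin family protein, had a region below the threshold with a signal of 11.1 in the pooled list and 10.3 in replicate 1, and none listed in replicate 2.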
